A study of Mus musculus with 6 samples.

Results

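Solute carriers are membrane proteins that move amino acids, sugars, ions, metals, nucleotides and other small molecules across the plasma membrane and the membranes of organelles. The genes described here are the well-expressed members of this superfamily in cultures labelled HL-1. They were chosen as rows whose gene name has the form Slc, a family number, the letter a and a member number, and whose level averaged 5 FPKM or more across the 6 libraries. FPKM is the number of sequenced fragments scaled to transcript length and to the size of the library. Of 336 rows with such a name in a table of 23060 genes, 111 reached that mean. Of 8 named genes that were set aside, mostly amino acid, glucose, fatty acid and iron carriers (Slc7a5, Slc7a11, Slc2a1, Slc27a1, Slc27a4, Slc11a1, Slc11a2 and Slc40a1), 6 had reached it, which leaves 105 members. Of the remaining rows, 77 were listed at 0 in every library. Another 104 had a mean above 0 and below 1 FPKM and 44 one from 1 to below 5 FPKM. The mean level chose the members, so the levels below are a description and the choice supports nothing.

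The series concerns macrophages and atrial fibrillation, and these libraries were meant to address how transcripts of atrial myocytes change with tachypacing. Tachypacing is rapid electrical stimulation and mimics, in a dish, the fast beating of a fibrillating atrium. HL-1 is a line derived from mouse atrial cardiomyocytes. There were 3 control libraries and 3 tachypaced libraries, all labelled as wild type, and all cultures grew in Claycomb medium with serum, antibiotics, norepinephrine and glutamine. The labels used here give no rate or length of pacing. Whether replicates came from separate dishes is not stated there, so the p-values cover the spread among these 6 libraries alone, and that spread may be technical. HL-1 is an immortalised line, which limits it as a model of the atrium.

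The labelled cell type did not match its markers, so the results below are not to be read as those of atrial myocytes. Of 8 cardiomyocyte genes, 5 (Actc1, Gata4, Myh6, Myl7 and Nkx2-5) had 0 FPKM in all libraries, and the summed level of the 8 ran from 0.107 to 0.430 FPKM. The summed level of 7 macrophage genes (Cd68, Lyz2, Csf1r, Ptprc, Adgre1, Itgam and Spi1) ran from 916 to 1046 FPKM in control and from 1144 to 1263 FPKM in tachypaced libraries. Fibroblast, endothelial and T cell markers summed to at most 0.144 FPKM. Among solute carriers, Slc8a1, the sodium-calcium exchanger of heart muscle, was listed at 0 in every library, and the insulin-responsive glucose transporter Slc2a4 lay between 1.62 and 2.15 FPKM. The macrophage sum was higher in tachypaced than in control libraries without overlap, and its part in any difference below was not tested. Cd68 and Lyz2 make up most of that sum. Cd68, Lyz2 and Spi1 were higher without overlap, whereas Csf1r, Ptprc, Adgre1 and Itgam overlapped. Csf1r was at 87.3, 95.7 and 103.5 FPKM in control and at 93.8, 98.4 and 92.2 FPKM in tachypaced libraries. In bulk RNA, fewer cells of a type and less RNA per cell cannot be told apart. Control replicate 1 had the highest macrophage sum of the controls, and it lay nearest of the controls to the tachypaced mean in 60 of the 105 members (57.1%) and in 55.2% of the 10361 genes tested. Results that rest on it are therefore given with and without it.

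Plasma membrane carriers bring in amino acids, sugars and ions, lysosomal carriers return the products of digestion to the cytosol, and mitochondrial carriers exchange nucleotides, phosphate and carboxylates with the matrix. In macrophages, lysosomal peptide and amino acid carriers are tied to degradation of engulfed material and to innate signalling, and in heart muscle the adenine nucleotide carriers supply ATP to contraction.

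Few solute carriers were called different between the groups. Transcripts of 3 of the 105 members rose in tachypaced libraries, all in the amino acid and peptide class: Slc15a3, Slc38a7 and Slc38a6. Transcripts of 2 members fell, both mitochondrial carriers: Slc25a5 and Slc25a30. Calls were made with limma on log2(FPKM + 1) over the 10361 genes averaging 1 FPKM or more, at a Benjamini-Hochberg adjusted p of 0.05. The share of members called either way (4.76%) was near the 5.52% of all genes tested, the shares higher (2.86%) and lower (1.9%) being set against 2.3% and 3.22%. The called genes are thus not a result about solute carriers as a group. Members average 5 FPKM or more and the genes tested 1 FPKM or more, so the shares compared here cover unlike ranges of level. All 5 calls ended when any library other than control replicate 1 was left out, with limma adjusted p from 0.0675 to 0.175. Without control replicate 1 there were 21 members higher and 10 lower (20% and 9.52%, against 11.2% and 18.8% of all genes tested), and these included the 5. That library is the control nearest to the tachypaced ones, so the larger counts add no support. Nor do the adjusted p-values of single genes without it, which are given below as a description.

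The promoters of the called genes are shown because these are the members that passed the test. A RefSeq promoter (GRCm38.p6) was found for 82 of the 105 members and for 4 of the 5 called ones. Each run is on the gene's strand, from 250 bases before the RefSeq start up to that start or to the GENCODE M21 start if this lies further upstream. Capitals mark a motif found on either strand.

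Slc38a7, chr8:95853540-95853741, minus strand: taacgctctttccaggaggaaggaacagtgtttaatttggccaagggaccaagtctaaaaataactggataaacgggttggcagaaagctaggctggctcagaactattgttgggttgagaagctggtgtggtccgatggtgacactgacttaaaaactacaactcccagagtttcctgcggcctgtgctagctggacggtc
Slc38a6, chr12:73286598-73286778, plus strand: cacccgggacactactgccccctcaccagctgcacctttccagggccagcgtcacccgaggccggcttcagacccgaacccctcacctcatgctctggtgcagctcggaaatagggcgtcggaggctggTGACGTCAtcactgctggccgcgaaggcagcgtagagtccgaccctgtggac
Slc25a5, chrX:36795347-36795596, plus strand: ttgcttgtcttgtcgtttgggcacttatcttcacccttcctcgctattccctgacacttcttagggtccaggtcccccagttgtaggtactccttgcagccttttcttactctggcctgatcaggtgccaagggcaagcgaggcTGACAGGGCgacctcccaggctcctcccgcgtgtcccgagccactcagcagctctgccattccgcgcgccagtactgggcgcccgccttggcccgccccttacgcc
Slc25a30, chr14:75787038-75787287, minus strand: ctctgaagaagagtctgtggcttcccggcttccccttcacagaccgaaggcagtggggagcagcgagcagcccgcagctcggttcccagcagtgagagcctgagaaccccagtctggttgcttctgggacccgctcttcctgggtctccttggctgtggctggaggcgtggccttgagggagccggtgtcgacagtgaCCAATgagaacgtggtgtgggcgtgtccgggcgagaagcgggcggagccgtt

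The 4 runs shared no searched motif. The letters of the antioxidant response motif, TGACNNNGC, stood in the Slc25a5 run, and those of the CCAAT box (CCAAT) in the Slc25a30 run. The cyclic AMP response motif, TGACGTCA, stood in the Slc38a6 run and was added to the search after that sequence had been read. For Slc38a7, the E-box CACGTG lay between the GENCODE and the RefSeq start, in bases not shown. Over the full 250 bases, TGACNNNGC was present in 21 of the 82 members (25.6%), against 13.9% of 8024 tested genes and 10.2% of all 32851 RefSeq windows. CACGTG was present in 14.6%, 10.5% and 6.02%, CCAAT in 41.5%, 41.3% and 33.8%, and TGACGTCA in 3.66%, 3.27% and 1.55% of the same sets. The amino acid response motif TGATGNAA was present in 2.44% of members and 2.46% of tested genes, TATAAA in 6.1% and 7.17%, and GCGCATGC, the core bound by nuclear respiratory factor 1, in 6.1% and 5.63%. A match to a motif describes the letters and not a bound site.

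By level, 8 members reached a mean of 100 FPKM and 30 lay below 10 FPKM, with a median of 16.3 FPKM. The adenine nucleotide carrier Slc25a5, which exchanges ADP and ATP across the inner mitochondrial membrane, was highest at 297 FPKM, followed by the phosphate carrier Slc25a3 at 272 and the mitochondrial glutathione carrier Slc25a39 at 195 FPKM. Next came Slc6a12, a betaine and GABA transporter, at 161 FPKM and Slc5a3, the sodium and myo-inositol cotransporter, at 143 FPKM. Both of these carry compatible osmolytes. Slc25a4, the adenine nucleotide carrier that predominates in heart muscle, stood at 114 FPKM, Slc3a2, the heavy chain of several amino acid exchangers, at 107, and Slc25a1, the citrate carrier, at 103 FPKM. The 105 members summed to between 3314 and 3401 FPKM per library in control and between 3328 and 3360 FPKM in tachypaced libraries, so the totals overlapped. At the threshold, Slc7a7 (5.08 FPKM), Slc20a2 (5.17), Slc15a3 (5.27) and Slc6a4 (5.46) lay just inside, and Slc4a8 (4.97), Slc25a40 (4.85), Slc41a2 (4.75) and Slc38a9 (4.57) just outside. For 3 members the control mean was below 5 FPKM (Slc15a3, Slc1a4 and Slc7a7), so they were included through the tachypaced libraries, and for 1 the tachypaced mean was below it (Slc20a2).

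**Figure D1:**
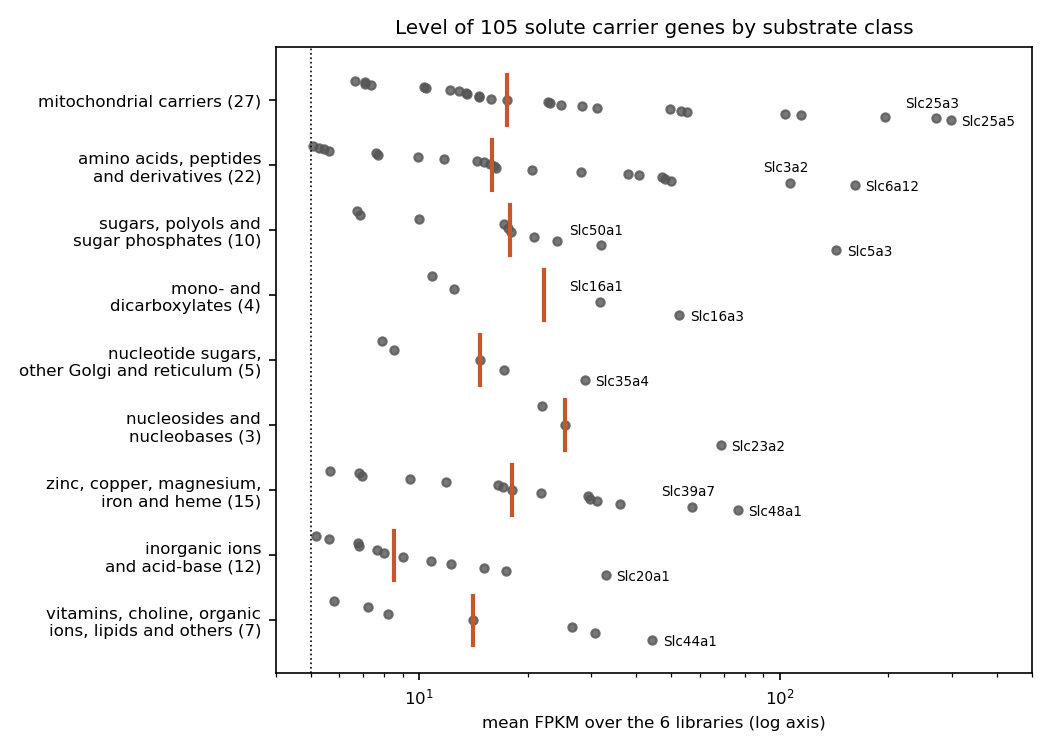
Mean FPKM over the 6 libraries (log axis) of the 105 members, 1 point per gene, in rows by substrate class with the number of members in parentheses; the red bar is the class median and the dotted line the mean of 5 FPKM that chose the members. Mitochondrial carriers reach the highest levels, up to 297 FPKM for Slc25a5, while the class medians lie between 8.49 and 25.3 FPKM.

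Over the 105 members, 61 log2 fold changes were positive and 44 negative, 55 were smaller than 0.1 in size, and 2 reached 0.5. The median SE was 0.07. Groups did not overlap in 39 members (37.1%, against 34.9% of all genes tested), 23 higher (21.9% against 12.6%) and 16 lower (15.2% against 22.4%). Within the 39, control replicate 1 was the control nearest to the tachypaced mean in 28. At an unadjusted p of 0.05, 20 members were higher (19%, against 10.8% of all genes tested) and 13 lower (12.4%, against 19.4%), and the counts by class below are to be read against the same shares. Slc15a3 and Slc1a4, which were included only through their tachypaced libraries, are among the 23 and among the 20. The counts of higher members are therefore partly set by the choice of members.

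**Figure D2:**
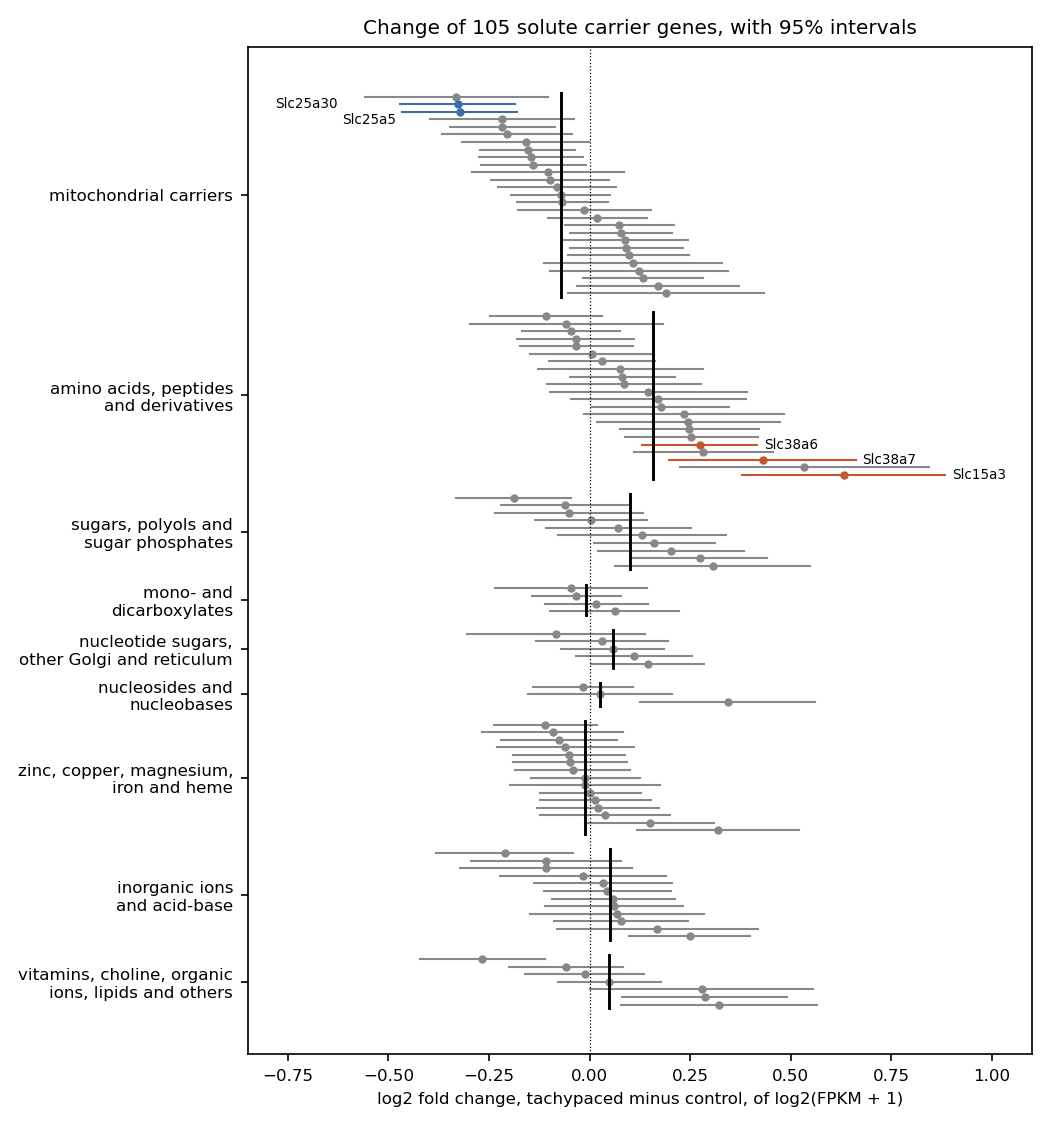
Log2 fold change of log2(FPKM + 1), tachypaced minus control, for each of the 105 members with its 95% interval from limma, grouped by substrate class; red marks genes called higher, blue genes called lower, grey genes not called, and the black bars are class medians. The medians run from -0.07 for mitochondrial carriers to 0.16 for amino acid and peptide carriers, and most intervals include 0. Slc15a3, Slc1a4 and Slc7a7, all amino acid and peptide carriers, were included only through their tachypaced libraries. The median of that class is therefore partly set by the choice of members.

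**Figure D3:**
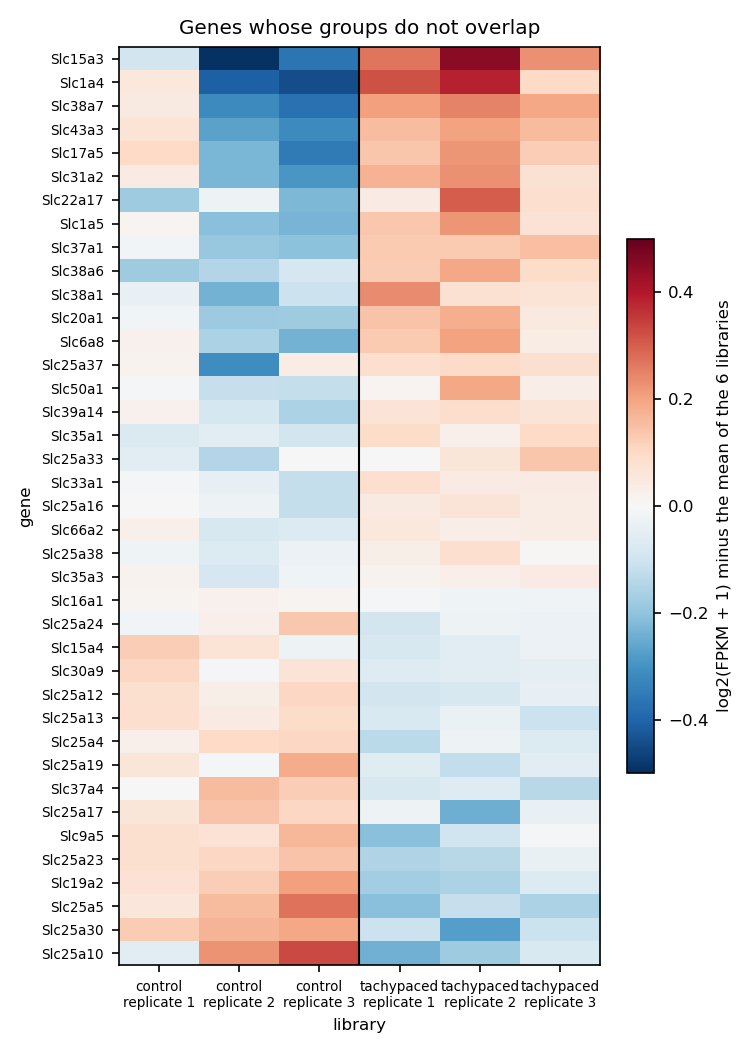
Log2(FPKM + 1) of the 39 members whose groups did not overlap, minus the gene's mean over the 6 libraries, with genes in rows ordered by log2 fold change and libraries in columns; red is above and blue below the mean. Of these rows 23 are higher and 16 lower in tachypaced libraries, and in 28 rows control replicate 1 is the control nearest to the tachypaced mean. Slc15a3 and Slc1a4, among the 23, were included only through their tachypaced libraries.

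Amino acid, peptide and related carriers comprised 22 members, of which 3 rose and 0 fell, with 9 higher and 0 lower at an unadjusted p of 0.05 in limma. The median log2 fold change was 0.16, against 0.03 over the 105 members and -0.04 over all genes tested. Slc15a3, Slc1a4 and Slc7a7, which were included only through their tachypaced libraries, all belong to this class. Slc15a3 is 1 of the 3 that rose, and Slc15a3 and Slc1a4 are among the 9. The counts and the median of this class are therefore partly set by the choice of members. Without control replicate 1, 10 of the 22 were higher and 0 lower, where 11.2% of all genes tested were higher and 18.8% lower.

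Slc15a3 (chromosome 19, 10839727 to 10859362, GRCm38) is a histidine and peptide transporter of endolysosomes that is known from innate immune cells. It was at 4.72, 3.34 and 3.74 FPKM in control replicates 1 to 3 and at 6.34, 7.34 and 6.16 FPKM in the tachypaced ones. The groups did not overlap, and the control nearest to the tachypaced libraries was replicate 1. The log2 fold change was 0.63 (SE 0.11, limma adjusted p = 0.0435). With a control mean of 3.93 FPKM, Slc15a3 reached the mean of 5 FPKM that chose the members only through its tachypaced libraries, so its place among the risen members is partly set by that choice. Its relative Slc15a4, which carries the same substrates, had 16.7 ± 0.913 FPKM in the controls and 15.4 ± 0.289 FPKM after pacing (SD, n = 3 per group here and below) and did not pass (log2 fold change -0.11, limma adjusted p = 0.258).

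Slc38a7 (chromosome 8, 95835920 to 95853539), a lysosomal exporter of glutamine and asparagine, was at 16.6, 12.7 and 12.2 FPKM in control and at 18.7, 19.3 and 18.5 FPKM in tachypaced libraries. Control replicate 1 again lay closest to the tachypaced values, which themselves lay within 1 FPKM of each other. The log2 fold change was 0.43 (SE 0.10, limma adjusted p = 0.0479). Slc38a6 (chromosome 12, 73286779 to 73354049), a member of the same family, rose from 8.62, 8.83 and 9.25 to 10.9, 11.4 and 10.6 FPKM. Here control replicate 1 was the lowest control, and the log2 fold change was 0.27 (SE 0.06, limma adjusted p = 0.0467). It was 0.25 without that library.

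Several plasma membrane amino acid carriers had groups that did not overlap and missed the threshold with all 6 libraries, but passed it without control replicate 1. Slc1a4, a neutral amino acid exchanger for alanine, serine and cysteine, was also admitted only through its tachypaced level, and it had 5.69, 3.86 and 3.75 FPKM in control and 7.05, 7.43 and 5.92 FPKM in paced libraries (log2 fold change 0.53, limma adjusted p = 0.0542). Its paralog Slc1a5, the main glutamine importer of many cells, stood at 42.5 ± 4.20 and 51.8 ± 2.76 FPKM (limma adjusted p = 0.0596). Slc38a1, a sodium-coupled glutamine transporter, stood at 25.6 ± 1.86 and 30.7 ± 2.10 FPKM (adjusted p = 0.0668), and the creatine transporter Slc6a8 at 37.1 ± 3.55 and 44.2 ± 2.56 FPKM (adjusted p = 0.0780). With that library left out, the limma adjusted p was 0.00186 for Slc1a4, 0.00275 for Slc1a5, 0.0141 for Slc38a1 and 0.00624 for Slc6a8. For each of them it was the control nearest to the tachypaced values, so these p-values add no support. Slc7a1, a cationic amino acid transporter, was at 22.4, 17.3 and 16.6 FPKM in control libraries and between 22.2 and 22.4 FPKM in the tachypaced ones. Control replicate 1 thus lay just above the tachypaced libraries for Slc7a1, and the adjusted p was 0.141 with it and 0.00193 without it. Slc3a2 stood at 100.1 ± 9.53 and 113 ± 6.0 FPKM (adjusted p = 0.153, and 0.0248 without control replicate 1). With control replicate 2 left out instead, the limma adjusted p of Slc3a2 was 0.263. At the other end, the osmolyte carriers Slc6a12 (161 ± 8.97 and 162 ± 12.4 FPKM) and Slc6a6, the taurine transporter (49.3 ± 2.72 and 50.3 ± 1.51 FPKM), had log2 fold changes of 0.01, which was -0.010 with quantile normalization, and 0.03. The 95% interval of the Slc6a12 difference ran from -0.15 to 0.16.

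**Figure D4:**
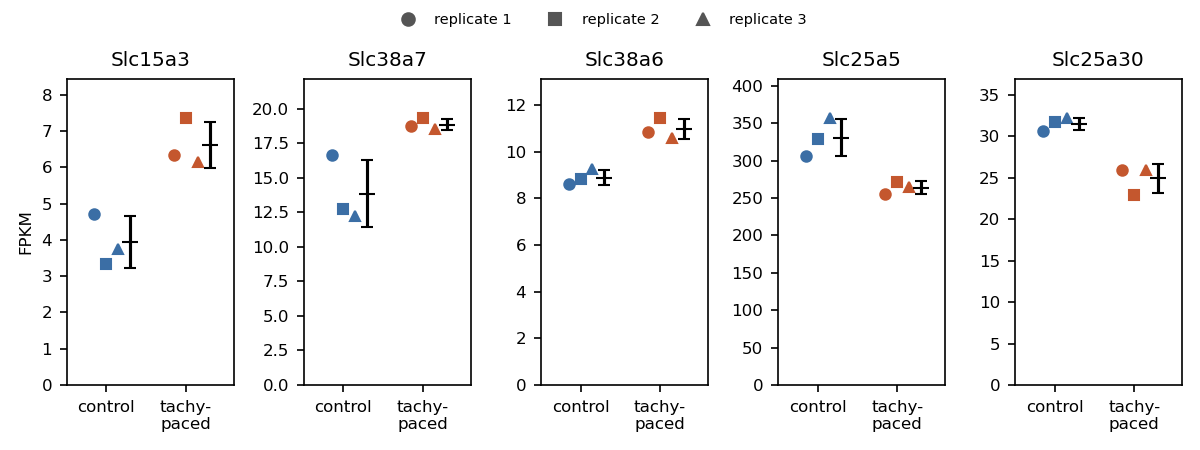
FPKM of the 5 called members in each library, with a marker shape per replicate number, control in blue and tachypaced in red; black bars are mean ± SD of 3 libraries and each axis starts at 0. The groups do not overlap in any of the 5 genes, and control replicate 1 is the control nearest to the tachypaced libraries for Slc15a3, Slc38a7, Slc25a5 and Slc25a30.

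Mitochondrial carriers of family Slc25 comprised 27 members, of which 2 fell and 0 rose, with 0 higher and 10 lower at an unadjusted p of 0.05 in limma. Their median log2 fold change was -0.07. These proteins sit mostly in the inner mitochondrial membrane and link the matrix to the cytosol. Groups did not overlap in 14 of them, 10 lower and 4 higher in tachypaced libraries, against 22.4% lower and 12.6% higher over all genes tested. Without control replicate 1, 7 of the 27 were lower and 0 higher, against 18.8% and 11.2%.

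Slc25a5 (chromosome X, 36795651 to 36798807) fell from 307, 329 and 357 FPKM to 255, 272 and 264 FPKM. The difference of -0.32 on the log2(FPKM + 1) scale (SE 0.06, limma adjusted p = 0.0435) separated groups that did not overlap, and control replicate 1 was the lowest control. Slc25a4, its paralog, stood at 121 ± 3.77 and 108 ± 4.13 FPKM, also without overlap (log2 fold change -0.15, limma adjusted p = 0.0935). The ratio of Slc25a5 to Slc25a4 was 2.64, 2.68 and 2.9 in control and 2.45, 2.43 and 2.43 in tachypaced libraries, without overlap. The 2 genes are similar in sequence, and how reads shared between such copies were divided is not given in the sources used here. Slc25a3, which brings in the phosphate for ATP synthesis, stood at 278 ± 10.1 and 265 ± 5.12 FPKM, with an interval of the log2 difference from -0.18 to 0.04. The calcium-regulated ATP and phosphate carriers Slc25a23, Slc25a24 and Slc25a25 had log2 fold changes of -0.22, -0.10 and 0.02. Of these 6 nucleotide and phosphate carriers, 5 had a negative sign and 1 passed. Leaving out control replicate 1 gave a limma adjusted p of 0.0238 for Slc25a4 and 0.0182 for Slc25a23.

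Slc25a30 (chromosome 14, 75760117 to 75787037), a carrier related to the uncoupling proteins, was at 30.7, 31.7 and 32.1 FPKM in control and at 25.9, 22.9 and 25.9 FPKM in tachypaced libraries. The controls lay close together and all above the tachypaced values. The log2 fold change was -0.33 (SE 0.06, limma adjusted p = 0.0435), and -0.35 without control replicate 1.

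The 3 carriers of citrate, dicarboxylates and oxoglutarate all had negative signs and 0 passed, 2 of them being lower at an unadjusted p of 0.05 in limma. Slc25a10, the dicarboxylate carrier, was at 12.2, 15.1 and 16.3 FPKM in control and at 10.6, 11.2 and 12.03 FPKM in tachypaced libraries. The groups were separate by a narrow margin, with control replicate 1 next to tachypaced replicate 3 (log2 fold change -0.33, limma adjusted p = 0.0746). Slc25a1, which exports citrate for lipid synthesis, stood at 111 ± 11.4 and 95.5 ± 5.14 FPKM (adjusted p = 0.106), and Slc25a11, the oxoglutarate carrier of the malate-aspartate shuttle, at 56.6 ± 2.22 and 53.9 ± 1.87 FPKM (adjusted p = 0.401). Without control replicate 1 the adjusted p was 0.00319 for Slc25a10 and 0.00532 for Slc25a1. For Slc25a10 the limma adjusted p was 0.205 without control replicate 2 and 0.225 without control replicate 3. The aspartate and glutamate carriers Slc25a12 and Slc25a13, the other part of that shuttle, both lay lower in every tachypaced library, with log2 fold changes of -0.14 and -0.15 that did not pass (limma adjusted p = 0.143 and 0.126).

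The mitoferrins Slc25a37 and Slc25a28, which bring iron into the matrix, stood at 46.7 ± 6.23 and 52.4 ± 0.301 FPKM and at 51.6 ± 3.40 and 55.03 ± 1.98 FPKM. For Slc25a37 the groups did not overlap, but control replicate 2 alone was low, at 39.5 FPKM against 49.995 and 50.6 in the other controls. Slc25a38, the glycine carrier used in heme synthesis, had a log2 fold change of 0.08, and Slc25a39 one of 0.07. None of these 4 genes had an unadjusted p under 0.05 in limma.

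Sugar, polyol and sugar phosphate carriers comprised 10 members, and 0 passed in either direction (4 higher and 1 lower at an unadjusted p of 0.05 in limma). Slc2a6, a lysosomal glucose transporter family member, was at 18.5, 15.8 and 13.7 FPKM in control and at 19.5, 22.03 and 18.3 FPKM in tachypaced libraries, so control replicate 1 overlapped the tachypaced group (log2 fold change 0.31, limma adjusted p = 0.0988). The sugar phosphate exchangers of the reticulum differed in sign: Slc37a1 stood at 5.99 ± 0.522 and 7.44 ± 0.0623 FPKM (adjusted p = 0.0599), Slc37a2 at 22.4 ± 2.47 and 25.8 ± 1.21 FPKM (adjusted p = 0.133), and Slc37a4, the glucose-6-phosphate translocase, at 18.9 ± 1.1 and 16.4 ± 0.454 FPKM (adjusted p = 0.0915). Whether these differences differ from each other was not tested. The limma adjusted p without control replicate 1 was 0.0104 for Slc2a6, 0.00709 for Slc37a1, 0.00878 for Slc37a2 and 0.0143 for Slc37a4. Slc50a1, a sugar transporter of the SWEET family, stood at 29.999 ± 1.39 and 33.7 ± 2.41 FPKM (adjusted p = 0.144, and 0.0473 without control replicate 1). With control replicate 2 left out instead, the limma adjusted p was 0.226 for Slc2a6 and 0.313 for Slc50a1. Slc5a3, the most abundant of the class, had 146 ± 11.9 and 141 ± 12.7 FPKM, and the neuronal-type glucose transporter Slc2a3 had 17.2 ± 0.954 and 17.2 ± 0.434 FPKM.

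The class of monocarboxylate and dicarboxylate carriers held 4 members of family Slc16, among them Slc16a1 and Slc16a3, proton-coupled carriers of lactate and pyruvate. In this class 0 passed in limma and 0 had an unadjusted p under 0.05. Slc16a3, the lactate exporter of glycolytic cells, was at 46.1, 57.3 and 57.4 FPKM in control and 52.8, 50.8 and 51.3 FPKM in tachypaced libraries. Control replicate 1 was the lowest of all 6 libraries, and the log2 fold change was -0.05 with it (limma adjusted p = 0.743) and -0.15 without it (adjusted p = 0.0377). Slc16a1, the widespread form, was even, with controls between 32.07 and 32.3 and tachypaced libraries between 31.3 and 31.6 FPKM. Its groups did not overlap although they differed by 0.03 on the log2 scale, with an interval from -0.14 to 0.08. Slc16a10, which carries aromatic amino acids, and Slc16a6 had log2 fold changes of 0.06 and 0.02.

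Carriers of nucleotide sugars and acetyl-CoA into the Golgi and reticulum comprised 5 members, and 0 passed (1 higher and 0 lower at an unadjusted p of 0.05 in limma). Slc35a1, which carries CMP-sialic acid, stood at 7.43 ± 0.118 and 8.32 ± 0.261 FPKM without overlap (limma adjusted p = 0.158). Slc35a3, a carrier of UDP-N-acetylglucosamine, and Slc33a1, which carries acetyl-CoA, also did not overlap, with log2 fold changes of 0.06 and 0.11. Slc35a4, the most abundant, stood at 28.5 ± 2.22 and 29.1 ± 1.68 FPKM.

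The nucleoside and nucleobase group held 3 members and 0 calls (1 higher and 0 lower at an unadjusted p of 0.05 in limma). Slc43a3, a purine nucleobase transporter, was at 26.4, 20.7 and 19.9 FPKM in control and at 28.05, 28.95 and 28.1 FPKM in tachypaced libraries. The groups did not overlap, the tachypaced values were nearly equal, and the log2 fold change was 0.34 (limma adjusted p = 0.0632, and 0.000845 without control replicate 1). Leaving out control replicate 2 instead gave Slc43a3 a limma adjusted p of 0.195. Slc23a2, placed here by its family, is a vitamin C transporter and stood at 68.0 ± 6.70 and 69.1 ± 4.27 FPKM. The equilibrative nucleoside transporter Slc29a1 stood at 22.1 ± 0.641 and 21.8 ± 0.576 FPKM.

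Metal and heme carriers comprised 15 members, mostly zinc importers of family Slc39 and zinc exporters of family Slc30, and 0 passed (1 higher and 0 lower at an unadjusted p of 0.05 in limma). Their median log2 fold change was -0.01. Slc31a2, a copper transporter of intracellular membranes, had the largest difference of the class, at 36.8, 30.4 and 28.99 FPKM in control and 40.4, 42.03 and 37.7 FPKM in tachypaced libraries (log2 fold change 0.32, limma adjusted p = 0.0631, and 0.00194 without control replicate 1). Leaving out control replicate 2 instead gave Slc31a2 a limma adjusted p of 0.191. Slc31a1, the plasma membrane copper importer, lies 62316 bases away on chromosome 4 and had a log2 fold change of -0.07, with 30.1 ± 2.05 and 28.5 ± 0.976 FPKM. The difference between these neighbours was not tested. The inflammation-responsive zinc importer Slc39a14 stood at 6.40 ± 0.471 and 7.2 ± 0.0732 FPKM (adjusted p = 0.190). The reticulum zinc transporter Slc39a7 and the heme transporter Slc48a1, the most abundant of the class, stood at 57.2 ± 1.73 and 57.3 ± 2.69 FPKM and at 77.99 ± 5.75 and 75.1 ± 1.44 FPKM.

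Inorganic ion and acid-base carriers comprised 12 members with 0 calls (1 higher and 1 lower at an unadjusted p of 0.05 in limma). Their median level, 8.49 FPKM, was the lowest of the 9 classes. The sodium-phosphate cotransporter Slc20a1 was at 32.3, 28.7 and 28.8 FPKM in control and at 36.2, 37.2 and 33.8 FPKM in tachypaced libraries, with a log2 fold change of 0.25 (limma adjusted p = 0.0587, and 0.00543 without control replicate 1). Leaving out control replicate 2 instead gave Slc20a1 a limma adjusted p of 0.184. Its paralog Slc20a2 stood at 5.41 ± 0.714 and 4.93 ± 0.355 FPKM. Slc9a5, a sodium-proton exchanger, had 7.36 ± 0.309 and 6.23 ± 0.497 FPKM without overlap (adjusted p = 0.104).

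In the last class, of vitamin, choline and organic ion carriers, 0 of 7 members passed (3 higher and 1 lower at an unadjusted p of 0.05 in limma). The thiamine transporter Slc19a2 was at 8.63, 8.99 and 9.56 FPKM in control and at 7.13, 7.21 and 7.75 FPKM in tachypaced libraries (log2 fold change -0.27, limma adjusted p = 0.0547, and 0.0145 without control replicate 1). The folate carrier Slc19a1 stood at 27.1 ± 1.23 and 26.03 ± 1.44 FPKM. The lysosomal sialic acid exporter Slc17a5 stood at 12.5 ± 2.26 and 15.8 ± 0.616 FPKM without overlap (adjusted p = 0.0908, and 0.00219 without control replicate 1), and Slc22a17, a receptor for lipocalin 2, at 6.41 ± 0.538 and 8.05 ± 0.905 FPKM (adjusted p = 0.0820). For Slc17a5 the limma adjusted p was 0.232 without control replicate 2 and 0.264 without control replicate 3. The choline transporters Slc44a1 and Slc44a2 had log2 fold changes of -0.01, which was 0.017 with median of ratios scaling and 0.006 with quantile normalization, and 0.05.

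Beside Slc31a1 and Slc31a2, 2 further pairs of members lay within 100 kb of each other. Slc38a1 and Slc38a2 lie 44479 bases apart on chromosome 15 and had log2 fold changes of 0.25 and 0.09. Slc6a13 and Slc6a12 lie 5343 bases apart on chromosome 6, with 0.08 and 0.01. No neighbour of these pairs passed.

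Partners of the carriers and transporters that go by other names gave no call either. Of a list of 50 such genes 43 were tested, and limma called 0 higher and 0 lower. At an unadjusted p of 0.05 in limma, 10 of the 43 were higher and 5 lower, against 10.8% and 19.4% of all genes tested. The median log2 fold change was 0.04. The list holds channels and pumps of the same membranes, other carriers of family Slc35 such as Slc35b1, and subunits such as Bsg (basigin), which brings monocarboxylate transporters to the cell surface. Bsg was at 688, 829 and 830.1 FPKM in control and between 672 and 691 FPKM in tachypaced libraries (adjusted p = 0.120), with control replicate 1 inside the tachypaced range. Vdac1, the main pore of the outer mitochondrial membrane, stood at 283 ± 12.8 and 249 ± 2.99 FPKM without overlap (adjusted p = 0.0657). The mitochondrial pyruvate carrier subunits Mpc1 and Mpc2 had log2 fold changes of 0.27 and 0.10. Slc35c2, a Golgi carrier family member, stood at 62.3 ± 3.79 and 72.8 ± 1.53 FPKM (adjusted p = 0.0550). Without control replicate 1, 10 of the 43 were higher and 8 lower, against 11.2% and 18.8% of all genes tested. These included Bsg (adjusted p = 0.00336), Vdac1 (adjusted p = 0.0107), Slc35c2 (adjusted p = 0.00411) and Mpc1 (adjusted p = 0.0164).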

How the data were processed

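The authors deposited FPKM values per gene name and library. Libraries were made from total RNA with a SMARTER mRNA kit, per the labels' protocols, and the submitters' processing notes name GRCm38 (mm10) as the build. Which aligner, annotation, quantifier and strand setting were used is not given in the sources used here. FPKM is relative to each library's total and, for similar genes, to how shared reads were divided. Values summed to 411050 to 432244 FPKM per library. Read depth is unknown, since ratios of low values between libraries shared no step (at most 5% fell in any log2 bin of 0.05 width), and no counting interval is given.

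Columns were matched to samples by the sample descriptions and groups by the titles. The 10361 genes averaging 1 FPKM or more were tested on log2(FPKM + 1) with limma 3.58.1 in R 4.3.3 (trend, two-sided, no covariates), with p-values adjusted over all of them by the Benjamini-Hochberg method. On this scale the change of low genes is understated. With 3 libraries per group, 0.1 is the smallest p an exact two-sided permutation test allows, and none was run. The steps were tested on simulated data. All 105 members passed the filter. Members, classes, the list of 50 partners and marker lists were chosen with earlier results of these data known, and no set test was made. Genes named were the called members, the 2 most abundant and the most changed member of each class, and those next to the level threshold; further members were named after their values were seen, and some members are counted but not reported here by name. Alternatives were another pseudocount, other filters on low values, median of ratios scaling, quantile normalization, no trend, the replicate number as a block, leaving out each library, and other member thresholds. Positions came from GENCODE M21 (104 members placed). Python 3.11.15 with pandas 2.3.3, numpy 2.4.6 and matplotlib 3.10.9 served for tables and figures.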

Additional observations from a re-analysis of the deposited data

How the results depend on the processing

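The 5 called members kept their sign under every alternative run, and their calls held with a pseudocount of 0.1, median of ratios scaling, a minimum mean of 5 FPKM, the replicate block and without control replicate 1. Members called higher and lower numbered 0 and 0 without a filter on low values and without the trend, 0 and 1 with quantile normalization, and 7 and 4 with a minimum mean of 5 FPKM; the cause was not tested. With members of at least 10 FPKM, which drops Slc15a3 and Slc38a6, 1 was higher. Leaving out each library gave 0 to 21 higher and 0 to 10 lower. The members' median log2 fold change of 0.03 was 0.060 with median of ratios scaling, 0.062 with quantile normalization and 0.0044 with members of at least 10 FPKM, and 0.011 to 0.049 without single libraries. The median over all genes tested moved too, from -0.037 to -0.010 with median of ratios scaling and to -0.005 with quantile normalization. Over all genes, 238 higher and 334 lower became 0 and 0 without a filter, 13 and 4 with quantile normalization, 2 and 0 without the trend, and 184 lower with median of ratios scaling, while leaving out each library gave 1 to 1160 higher and 0 to 1948 lower. With a minimum mean of 5 FPKM, 288 of the 7483 genes then tested were higher and 475 lower, beside the 7 and 4 of the 105 members. In the partner list 1 gene was higher with a minimum mean of 5 FPKM, and 0 to 10 were higher and 0 to 8 lower without single libraries. Same-numbered libraries' deviations from their group means correlated at 0.061, -0.034 and 0.157, and those of differently numbered ones at -0.156 to 0.081. Deviations within a group of 3 sum to 0, so these few values cannot decide whether replicate numbers pair the libraries. With the replicate number as a block, 7 members were higher and 4 lower, 591 genes of the table were lower, and 1 partner was higher. Among uncalled members near 0, Slc44a1 changed sign to 0.017 with median of ratios scaling and to 0.006 with quantile normalization, and Slc6a12 to -0.010 with the latter. Without single libraries the log2 fold change ran from -0.054 to 0.053 for Slc6a12, -0.111 to 0.022 for Slc5a3, -0.033 to 0.069 for Slc35a4, -0.024 to 0.040 for Slc39a7, -0.050 to 0.049 for Slc44a1, -0.149 to 0.006 for Slc16a3, -0.051 to 0.090 for Slc23a2, -0.097 to 0.005 for Slc48a1 and -0.157 to 0.055 for Slc6a4.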
